A study of Mus musculus with 10 samples.

Results

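The mRNAs of 10 regulators of mitochondrial apoptosis in the BCL2 family were followed across wild-type (WT), DGCR8 KO and DDX6 KO mouse embryonic stem cells (ESCs). The 10 genes were taken by symbol from the 51467 genes of the count table. They were the BH3-only genes Bcl2l11, Bid, Bbc3, Pmaip1 and Bmf, the effectors Bax and Bak1, and the anti-apoptotic genes Mcl1, Bcl2 and Bcl2l1. Expression was measured by QuantSeq, which reads the 3′ end of polyadenylated RNA, in 10 libraries. There were 3 WT libraries, 3 DGCR8 KO libraries and 4 DDX6 KO libraries, the last from 2 clones with 2 libraries each. The study asks how translation and mRNA stability are linked in ESCs, and set both knockouts against WT cells.

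WT cells were V6.5 ESCs, and the DDX6 KO clones were derived from them with CRISPR-Cas9. All 3 genotypes grew in the same medium, Knockout DMEM with serum and LIF, to which the 2i inhibitors PD0325901 and CHIR99021 were added. The sample records give CRISPR as the origin of the knockout cells, while the study lists its Dgcr8 KO line as one made in earlier work, so the DGCR8 KO libraries stand for 1 line. Nothing in the sources says whether libraries of a group came from separate cultures, so the p-values measure the spread between these libraries, which may be technical. DGCR8 is the RNA-binding partner of DROSHA in the complex that cuts primary microRNAs (miRNAs), and cells without it lack canonical miRNAs. DDX6 is an RNA helicase that acts with the deadenylation and decapping machinery in translational repression and mRNA decay.

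BCL2 family proteins set whether the outer mitochondrial membrane is permeabilised. Effectors (BAX and BAK) form the pores, anti-apoptotic members (MCL1, BCL2 and BCL-XL) hold effectors and BH3-only proteins in check, and BH3-only proteins carry the death signal by freeing or activating effectors. ESCs are known to be primed for apoptosis and to depend on MCL1 and BCL-XL, and several BH3-only mRNAs are known miRNA targets.

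The miRNA sites come first, because the knockouts act on the miRNA pathway. The main miRNAs of ESCs, the ESC-enriched cell-cycle (ESCC) family, share a seed, the bases 2 to 8 that pair with a target. Mature sequences from RefSeq (GRCm38.p6) are shown 5′ to 3′ with the seed in capitals. miR-17-5p is added because its seed is shifted by a single base from that of the ESCC family.
miR-291a-3p: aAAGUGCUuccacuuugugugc
miR-294-3p: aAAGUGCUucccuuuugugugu
miR-295-3p: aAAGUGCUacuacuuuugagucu
miR-302b-3p: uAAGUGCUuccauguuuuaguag
miR-302d-3p: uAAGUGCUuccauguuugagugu
miR-17-5p: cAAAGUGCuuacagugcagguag

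The letters pairing with the ESCC seed (AGCACTT, read on the transcript strand alone) are described here for the main annotated 3′ UTRs of Bcl2l11, Mcl1 and Bcl2. The same letters occur in 16.8% of the 3′ UTRs of the 10958 tested genes that have one. Bcl2l11 held 3 of these sites, Bcl2 held 2 and Mcl1 held 1. The sites of these 3 genes follow on the strand of the transcript, with the match in capitals and GRCm38 coordinates, to let the members be compared site by site.
Bcl2l11 site 1 (chr2:128159569-128159597, plus strand): atgccgagtaaAGCACTTgtcttccacaa
Bcl2l11 site 2 (chr2:128159766-128159794, plus strand): cctggtggaggAGCACTTtctaacctgtg
Bcl2l11 site 3 (chr2:128160440-128160468, plus strand): tccccgactggAGCACTTtactgtctcag
Mcl1 site (chr3:95662631-95662659, plus strand): tcggacttcagAGCACTTtatgtagttga
Bcl2 site 1 (chr1:106540031-106540059, minus strand): acagttaagggAGCACTTtcatgtagttc
Bcl2 site 2 (chr1:106538825-106538853, minus strand): gatggcacctgAGCACTTcatcctggata

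Where AGCACTT is followed by another T, the miR-17-5p match (GCACTTT) overlaps it, which was the case for Bcl2l11 sites 2 and 3, the Mcl1 site and Bcl2 site 1. Bid and Bmf each held a miR-17-5p match that is not part of an ESCC match, and this match occurs in 14.3% of the tested 3′ UTRs. The Bid match lies 55 bases before the end of its 3′ UTR.
Bid miR-17-5p site (chr6:120892898-120892926, minus strand): caagagtgcatGCACTTTtagaatatgaa

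The other families gave a mixed picture over the members. Matches to miR-29a-3p were in 5 members (Bcl2l11, Bbc3, Bmf, Bak1 and Mcl1) against 14.9% of tested genes, those to miR-92a-3p in 3 (Bcl2l11, Bak1 and Mcl1) against 7.19%, and those to miR-34a-5p in 3 (Bid, Bmf and Bax) against 16.3%. miR-19b-3p matched Bcl2l11 and Bmf (12.9% of tested genes), miR-16-5p matched Bcl2 (23.8%) and let-7a-5p matched Bcl2l1 (9.93%). The 3′ UTR of Bcl2l11 is 4218 bases long, longer than 93.7% of those tested, and held 9 matches in all. In this number, overlapping ESCC and miR-17-5p matches are counted separately. The 3′ UTR of Pmaip1 is 2187 bases long and held no match to any of the 8 families. Long 3′ UTRs hold more matches of any kind, and a match is a description of these letters, not a measured site of regulation. miRNA levels were not analysed here.

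**Figure D1:**
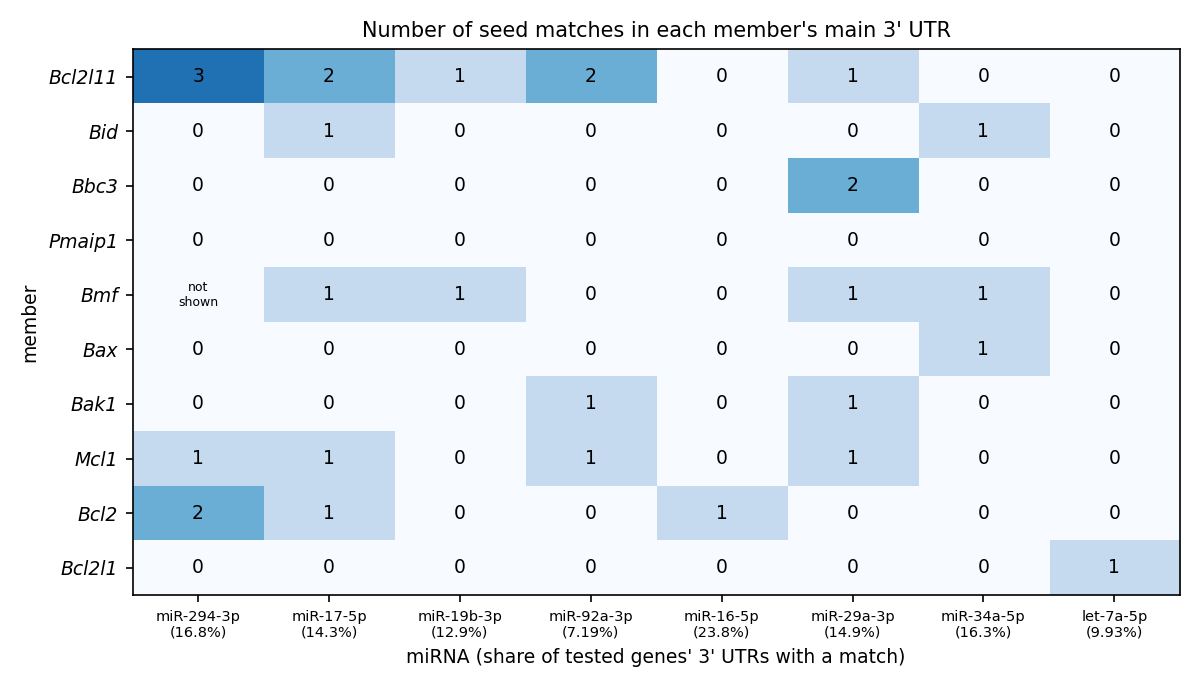
Number of seed matches in the main annotated 3′ UTR of each member (rows) for 8 miRNA families (columns), with the share of tested genes that hold a match in brackets under each family name. Bcl2l11 holds 9 matches and Pmaip1 holds 0, with overlapping matches of different families counted separately, and 1 cell is not shown.

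Levels are given in CPM, the counts of a gene per 1000000 counts of its library, on TMM-scaled totals. As QuantSeq gives about 1 tag per transcript, CPM was not divided by length when members were compared. In bulk libraries, a change in the share of cells that hold an mRNA and a change in its level per cell cannot be told apart. The libraries held 2131156 to 4745083 counts on genes, so that 3 counts correspond to 0.669 to 1.44 CPM. Dgcr8 fell by 2.34 on the log2 scale in DGCR8 KO (limma adjusted p = 9.44e-07) and Ddx6 fell by 3.05 in DDX6 KO (adjusted p = 3.92e-06), with a higher remaining level in clone 1 (135 and 149 CPM) than in clone 2 (25.7 and 39.0 CPM). All 7 naive ESC markers passed the filter and summed to 3575 to 3954 CPM in WT, 3138 to 3555 CPM in DGCR8 KO and 3672 to 3985 CPM in DDX6 KO. Compared with WT, 4 of them were lower and 1 higher in DGCR8 KO, and 1 was lower and 1 higher in DDX6 KO. The 6 fibroblast markers summed to 3.41 to 4.32 CPM in WT, 2.44 to 3.39 CPM in DGCR8 KO and 5.28 to 9.52 CPM in DDX6 KO, and the 6 primitive endoderm markers to 2.39 to 6.11 CPM. Of the 5 markers of formative or primed epiblast, Fgf5 had no count. The 5 summed to 194 to 287 CPM in WT, 148 to 178 CPM in DGCR8 KO and 81.4 to 107 CPM in DDX6 KO, chiefly Dnmt3b. Otx2 was at 35.8 CPM in WT, 45.7 CPM in DGCR8 KO and 7.76 CPM in DDX6 KO. The part of these marker differences in the results on the BCL2 family was not tested.

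In WT cells Mcl1 stood far above the other members, at 678 ± 82.7 CPM (SD, n = 3), a level above that of 98.2% of tested genes. Next came Bcl2l1 (85.7 ± 18.3 CPM), Bax (62.0 ± 11.2), Bid (53.3 ± 9.95), Bbc3 (51.2 ± 7.46), Bak1 (39.1 ± 3.99), Bcl2l11 (28.5 ± 5.02) and Pmaip1 (25.0 ± 10.5). In this order Bax and Bid, Bid and Bbc3, and Bcl2l11 and Pmaip1 differed by less than the larger of their SDs, and the other neighbours by more. Bmf (4.90 ± 1.70 CPM) and Bcl2 (0.634 ± 0.821 CPM) were at the bottom, and Bcl2 did not reach 3 CPM in 3 libraries and was left out of the test. The plot of levels by library shows all 10 genes.

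**Figure D2:**
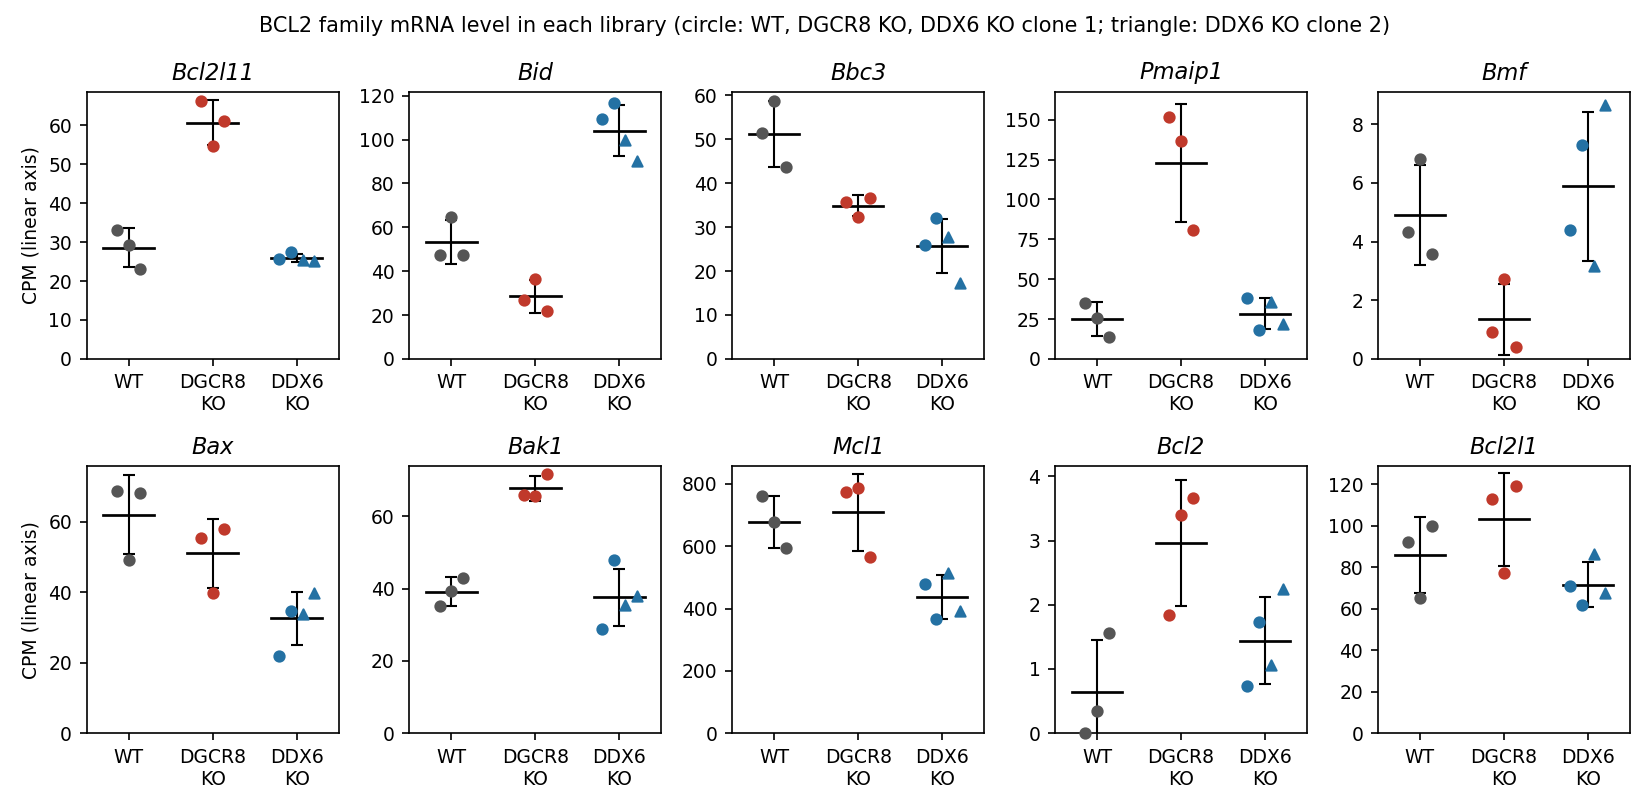
CPM (linear axis from 0) of each of the 10 members in every library of WT, DGCR8 KO and DDX6 KO, with the mean (line) and SD (bar) of each group. Pmaip1, Bcl2l11 and Bak1 are high in the 3 DGCR8 KO libraries, and Bid is high in the 4 DDX6 KO libraries.

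With DGCR8 lost, 3 members rose and 3 fell at an adjusted p under 0.05. Pmaip1, Bcl2l11 and Bak1 were higher, and Bmf, Bid and Bbc3 were lower. Over all 11683 tested genes, 19.9% rose and 16.5% fell. The change was beyond 2-fold for 3 of the 9 tested members (Pmaip1, Bcl2l11 and Bmf), against 14.7% of all tested genes, and the DGCR8 KO and WT libraries did not overlap for 6 of 9, against 44.8%. The median log2 change of the 9 members was 0.07 and that of all tested genes was 0.00, and the median absolute change was 0.77 against 0.41.

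With DDX6 lost, 1 member rose (Bid) and 3 fell (Bbc3, Bax and Mcl1). Of all tested genes, 17.9% rose and 16.6% fell in DDX6 KO. Bbc3 was the 1 member beyond 2-fold, against 11.2% of tested genes, and the libraries of 4 members did not overlap with WT, against 39.9%. The median log2 change of the 9 members was -0.09, beside 0.02 for all tested genes, and the median absolute change was 0.33 against 0.36.

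Both knockouts were compared with the same 3 WT libraries, so the comparison between the knockouts themselves was made directly. All 9 tested members passed it, 7 of them higher in DGCR8 KO and 2 (Bid and Bmf) lower. The 7 became 4 without DGCR8 KO library 1 or without DGCR8 KO library 3, and Bbc3, at an adjusted p of 0.0497, was lost in 14 of 21 alternatives. Over all tested genes 23.0% were higher and 21.0% lower in DGCR8 KO than in DDX6 KO. Of the 9 members, 4 were beyond 2-fold (Pmaip1, Bmf, Bid and Bcl2l11), against 17.1% of tested genes, and 7 did not overlap, against 45.8%. The median log2 difference was 0.64 for the members and 0.00 for all tested genes.

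**Figure D3:**
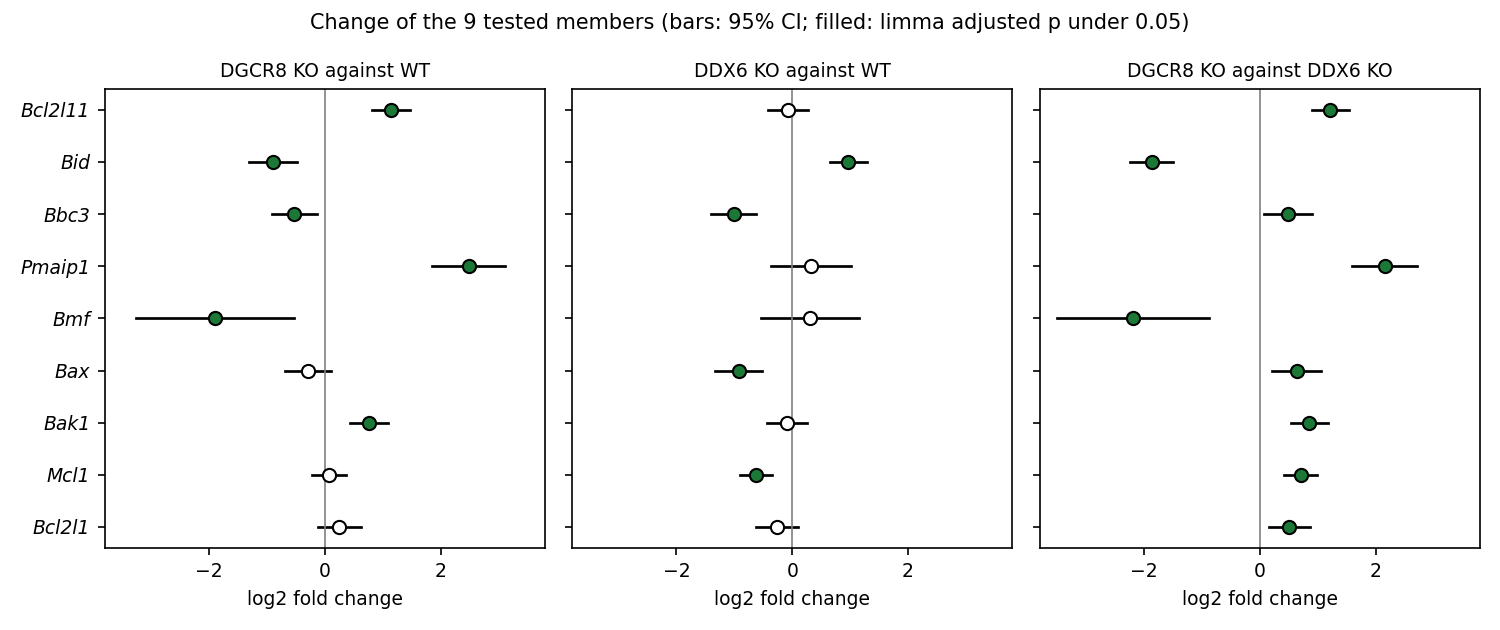
log2 fold change of the 9 tested members (points) with 95% confidence interval (bars) in DGCR8 KO against WT, DDX6 KO against WT and DGCR8 KO against DDX6 KO, filled where the limma adjusted p was under 0.05. Pmaip1 has the largest positive change in DGCR8 KO (2.49), and Bid has opposite signs in the knockouts (-0.90 and 0.97).

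Pmaip1 encodes NOXA, a BH3-only protein that binds MCL1 and marks it for degradation. The gene (ENSMUSG00000024521) lies on chromosome 18 at 66458604 to 66465550. The WT libraries were at 35.0, 25.9 and 14.05 CPM, the DGCR8 KO libraries at 152, 136 and 81.0 CPM, and those of DDX6 KO at 38.1 and 18.4 CPM in clone 1 and 35.5 and 21.8 CPM in clone 2 of DDX6 KO. Every DGCR8 KO library was above every other library, and the WT and DDX6 KO libraries ran through each other. The rise in DGCR8 KO was 5.60-fold (log2 2.49, standard error 0.30, adjusted p = 5.05e-06), and DGCR8 KO was also above DDX6 KO (log2 2.16, adjusted p = 4.18e-06). In DDX6 KO the log2 difference from WT was 0.33 with a 95% interval of -0.37 to 1.02 (adjusted p = 0.469). Within each of WT and DGCR8 KO the third library was lowest.

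Bcl2l11 encodes BIM, an activator BH3-only protein and a known target of several miRNAs. The gene (ENSMUSG00000027381) lies on chromosome 2 at 128126038 to 128162547, and its 3 ESCC matches are printed above. It was at 33.1, 29.3 and 23.2 CPM in WT, at 66.1, 54.6 and 61.1 CPM in DGCR8 KO, and at 25.6 and 27.5 CPM in clone 1 and 25.3 and 25.2 CPM in clone 2 of DDX6 KO. The DGCR8 KO libraries were clear of all others, and the 4 DDX6 KO libraries lay within the WT range. It rose 2.21-fold in DGCR8 KO (log2 1.14, standard error 0.16, adjusted p = 2.17e-05). In DDX6 KO the log2 difference was -0.08 (95% interval -0.43 to 0.27, adjusted p = 0.751), so a rise of the size seen in DGCR8 KO lies outside the interval. DGCR8 KO exceeded DDX6 KO by 1.22 on the log2 scale (adjusted p = 3.80e-06).

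Bid encodes the BH3-only protein that caspase-8 cleaves to connect death receptors to mitochondria. The gene (ENSMUSG00000004446) lies on chromosome 6 at 120892854 to 120916853. It was at 47.5, 64.7 and 47.5 CPM in WT, at 26.9, 36.6 and 22.0 CPM in DGCR8 KO, and at 109.5 and 117 CPM in clone 1 and 99.6 and 90.1 CPM in clone 2 of DDX6 KO. The 3 genotypes did not overlap, with DGCR8 KO lowest and DDX6 KO highest. Bid fell by 0.90 on the log2 scale in DGCR8 KO (standard error 0.20, adjusted p = 0.00159) and rose by 0.97 in DDX6 KO (standard error 0.15, adjusted p = 1.04e-04). The knockouts differed by -1.87 (DGCR8 KO minus DDX6 KO, adjusted p = 2.08e-07).

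The other genes of chromosome 6 moved with Bid in DDX6 KO. Over the other 560 tested genes of this chromosome the median log2 change in DDX6 KO was 0.59, with quartiles of 0.25 and 0.99, and 58.8% of them rose. Taken per library as the log2 difference from the WT mean, the median over the chromosome was 0.53 to 0.66 in the 4 DDX6 KO libraries. It was -0.0094 to 0.0076 in the WT libraries, which this scale centres near 0. The change of Bid, 0.97, thus lay inside the quartiles of its chromosome. In DGCR8 KO against WT the median of chromosome 6 was 0.07, and in DGCR8 KO against DDX6 KO it was -0.52. The chromosomes of the other tested members had medians between -0.03 and 0.09 in DDX6 KO. The number of copies of chromosome 6 was not measured, and its part in the rise of Bid was not tested.

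**Figure D4:**
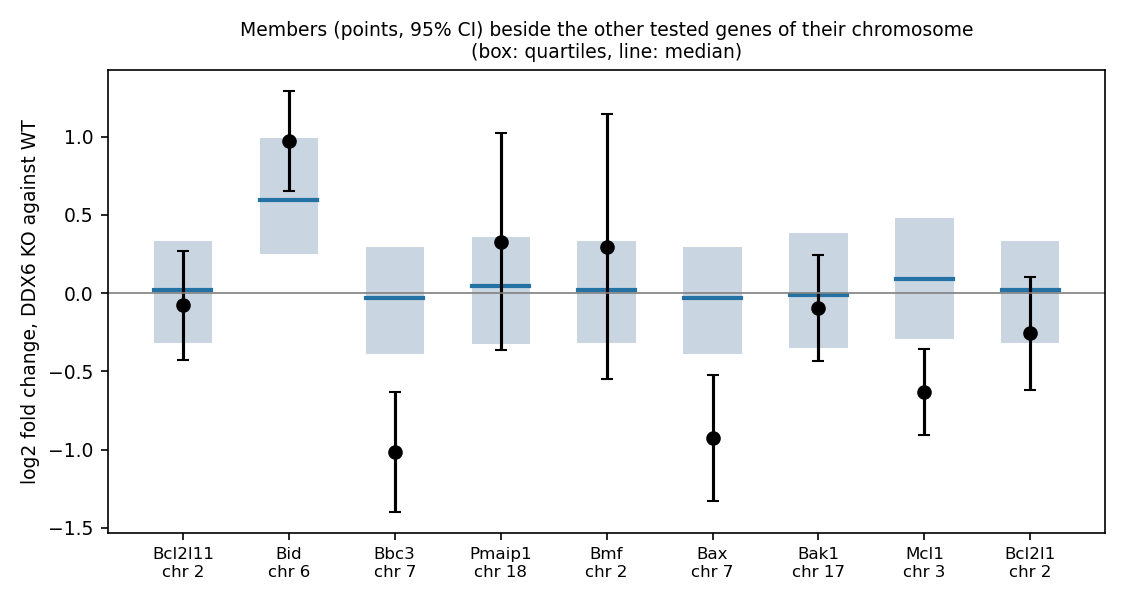
log2 fold change in DDX6 KO against WT of each tested member (points, with 95% confidence interval) beside the other tested genes of its chromosome (box from the lower to the upper quartile, line at the median). The box of chromosome 6, the chromosome of Bid, runs from 0.25 to 0.99, while the other boxes span 0.

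Bbc3 encodes PUMA, a potent BH3-only protein and a classic p53 target. The gene (ENSMUSG00000002083) lies on chromosome 7 at 16309616 to 16318205. It was at 51.4, 58.6 and 43.7 CPM in WT, at 35.8, 32.2 and 36.7 CPM in DGCR8 KO, and at 26.0 and 32.0 CPM in clone 1 and 27.8 and 17.4 CPM in clone 2 of DDX6 KO. The libraries fell in the order WT, DGCR8 KO, DDX6 KO with no overlap. In DDX6 KO it fell by 1.01 on the log2 scale (standard error 0.18, adjusted p = 3.65e-04). In DGCR8 KO it fell by 0.53 (adjusted p = 0.0340), a call that was lost without WT library 1 (0.0662), WT library 2 (0.130), DGCR8 KO library 1 (0.0696) or DGCR8 KO library 2 (0.0894). The difference between the knockouts, 0.49 with an adjusted p of 0.0497, was at the threshold and was lost in 14 of 21 alternatives, among them edgeR (0.0614) and DESeq2 (0.0838).

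Bmf encodes a BH3-only protein that responds to loss of attachment. The gene (ENSMUSG00000040093) lies on chromosome 2 at 118528757 to 118549687, on the minus strand. It was at 4.32, 6.81 and 3.57 CPM in WT (9, 20 and 16 counts), at 0.919, 2.71 and 0.407 CPM in DGCR8 KO (3, 8 and 1 counts), and at 4.40 and 7.30 CPM in clone 1 and 3.17 and 8.68 CPM in clone 2 of DDX6 KO. The DGCR8 KO libraries were the 3 lowest, but rested on 12 counts in all. The fitted log2 change in DGCR8 KO was -1.89 with a 95% interval of -3.26 to -0.53 (adjusted p = 0.0287). The call was lost without WT library 2 (0.0783), DGCR8 KO library 1 (0.103) or DGCR8 KO library 3 (0.0979). Against DDX6 KO the difference was -2.19 (adjusted p = 0.00859).

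Bax and Bak1, the pore-forming effectors, moved in different knockouts. Bax (ENSMUSG00000003873, chromosome 7 at 45461697 to 45466898) was at 68.7, 49.1 and 68.2 CPM in WT, at 55.4, 39.7 and 57.8 CPM in DGCR8 KO, and at 22.0 and 34.8 CPM in clone 1 and 33.8 and 39.7 CPM in clone 2 of DDX6 KO. All 4 DDX6 KO libraries were below all WT libraries, while DGCR8 KO overlapped with WT. Bax fell by 0.93 on the log2 scale in DDX6 KO (standard error 0.19, adjusted p = 0.00119), and in DGCR8 KO the difference was -0.29 (95% interval -0.69 to 0.11, adjusted p = 0.258).

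Bak1 (ENSMUSG00000057789, chromosome 17 at 27019810 to 27029009) was at 35.0, 39.2 and 43.0 CPM in WT, at 65.8, 65.5 and 71.7 CPM in DGCR8 KO, and at 28.9 and 48.0 CPM in clone 1 and 35.5 and 38.1 CPM in clone 2 of DDX6 KO. The 3 DGCR8 KO libraries were close together and above the rest, and the DDX6 KO libraries straddled the WT libraries. Bak1 rose 1.70-fold in DGCR8 KO (log2 0.77, standard error 0.16, adjusted p = 0.00103), with a log2 difference of -0.09 in DDX6 KO (95% interval -0.43 to 0.25, adjusted p = 0.690). The ratio of Bax to Bak1 CPM was 1.25 to 1.96 in the WT libraries, 0.606 to 0.842 in DGCR8 KO and 0.725 to 1.04 in DDX6 KO. Both knockouts were below WT in every library, through more Bak1 in one and less Bax in the other. In the direct comparison Bak1 was higher in DGCR8 KO (0.86, adjusted p = 1.60e-04), as was Bax (0.64, adjusted p = 0.0147). The Bax call was lost without DGCR8 KO library 1 (0.0740), DGCR8 KO library 3 (0.0558) or the first library of DDX6 KO clone 1 (0.0547), and with clone 2 alone (0.141).

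Mcl1 encodes a short-lived anti-apoptotic protein that holds BAK and BIM. The gene (ENSMUSG00000038612) lies on chromosome 3 at 95658788 to 95663176. It was at 761, 677 and 595 CPM in WT, at 775, 786 and 566 CPM in DGCR8 KO, and at 478 and 366 CPM in clone 1 and 513 and 392.1 CPM in clone 2 of DDX6 KO. Every DDX6 KO library was below every library of the other genotypes, and DGCR8 KO overlapped with WT. Mcl1 fell by 0.63 on the log2 scale in DDX6 KO (standard error 0.13, adjusted p = 0.00126), to 0.646 of the WT level. In DGCR8 KO the difference was 0.07 (95% interval -0.22 to 0.36, adjusted p = 0.707), and the knockouts differed by 0.70 (adjusted p = 3.08e-04).

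Bcl2l1 encodes BCL-XL, an anti-apoptotic protein, and the pro-apoptotic splice form BCL-XS, which tags at the 3′ end do not separate. The gene (ENSMUSG00000007659) lies on chromosome 2 at 152780668 to 152831728. It was at 92.2, 65.1 and 99.9 CPM in WT, at 113, 77.4 and 119 CPM in DGCR8 KO, and at 70.7 and 61.6 CPM in clone 1 and 86.5 and 67.7 CPM in clone 2 of DDX6 KO. The 3 genotypes overlapped, and in each of WT and DGCR8 KO the second library was lowest. Each DGCR8 KO library was above the WT library of the same number. Neither knockout passed against WT (log2 0.25, adjusted p = 0.292, in DGCR8 KO and -0.26, adjusted p = 0.264, in DDX6 KO), although without DGCR8 KO library 2 the first of these passed (0.45, adjusted p = 0.0448), and with the replicate number as a block it was 0.27 (adjusted p = 0.0792). The knockouts differed by 0.51 (adjusted p = 0.0214). That call was lost without DGCR8 KO library 1 (0.110), DGCR8 KO library 3 (0.0926), the second library of clone 1 (0.0647) or the second of clone 2 (0.0535), and with clone 2 alone (0.165).

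Bcl2, the founding anti-apoptotic member (ENSMUSG00000057329, chromosome 1 at 106538178 to 106714274), had at most 10 counts in any library. It had 0, 1 and 7 counts in WT, 6, 10 and 9 counts in DGCR8 KO, and 2 and 5 in clone 1 and 3 and 8 in clone 2 of DDX6 KO. Of these libraries, 4 held 3 counts or fewer, and no fold is given. With the filter lowered to 1 CPM in 3 libraries or removed, Bcl2 passed as higher in DGCR8 KO than in WT (adjusted p = 0.0400 and 0.0226), and passed in neither of the other comparisons (adjusted p from 0.184 to 0.287).

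Summed by role, the members showed where the balance of their mRNAs lay in each genotype. The 5 BH3-only genes summed to 163 ± 27.7 CPM in WT (SD, n = 3), 248 ± 41.9 CPM in DGCR8 KO (n = 3) and 190.1 ± 18.7 CPM in DDX6 KO (n = 4). The effectors summed to 101 ± 11.7, 119 ± 12.4 and 70.2 ± 14.01 CPM, and the anti-apoptotic genes to 764 ± 80.2, 815 ± 110.2 and 510.2 ± 78.9 CPM. Mcl1 made up 88.6%, 86.7% and 85.6% of the anti-apoptotic sum. The BH3-only sum per anti-apoptotic sum was 0.201, 0.250 and 0.190 over WT, 0.316, 0.303 and 0.292 in DGCR8 KO, and 0.371 and 0.471 in clone 1 and 0.319 and 0.353 in clone 2 of DDX6 KO. This ratio was higher in every knockout library than in every WT library. Without Bid, a choice made after seeing the data, it was 0.121 to 0.162 in WT, 0.260 to 0.286 in DGCR8 KO and 0.153 to 0.199 in DDX6 KO, so that DDX6 KO overlapped with WT and DGCR8 KO did not. In DGCR8 KO it went with a larger BH3-only sum, led by Pmaip1 and Bcl2l11, and in DDX6 KO with a smaller anti-apoptotic sum, led by Mcl1, and with more Bid, which moved with the other genes of chromosome 6. These are sums of mRNA chosen by role, given as a description, and say nothing of protein.

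**Figure D5:**
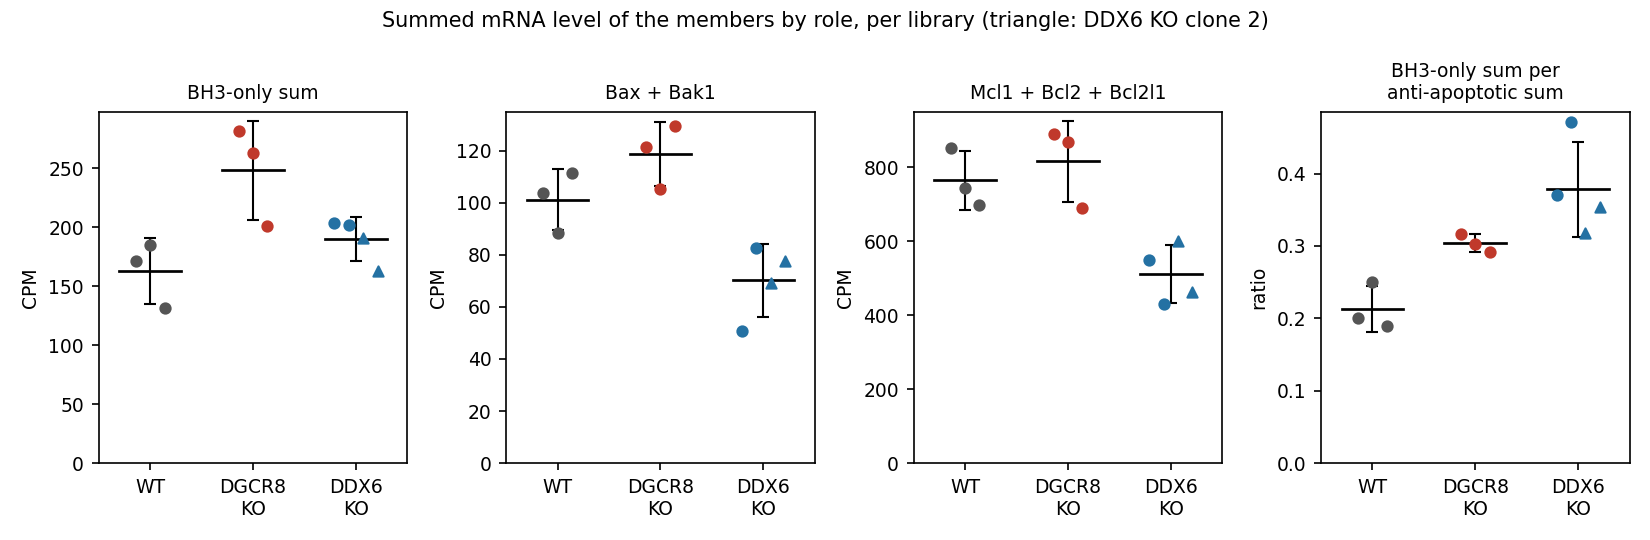
Summed CPM of the BH3-only, effector and anti-apoptotic members, and the ratio of the BH3-only to the anti-apoptotic sum, in each library of WT, DGCR8 KO and DDX6 KO (line, mean; bar, SD; axes from 0). The ratio is at most 0.250 in WT and at least 0.292 in the knockouts with Bid included, and the anti-apoptotic sum is 429 to 601 CPM in DDX6 KO.

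The 2 DDX6 KO clones gave no called difference between them. In limma 0 of the 9 tested members passed between clone 2 and clone 1, and 0 had an unadjusted p under 0.05, as 0.0428% of all tested genes passed. edgeR also called 0. Set against WT separately, Bid passed as higher in clone 1 (log2 1.10, adjusted p = 2.93e-04) and in clone 2 (0.84, adjusted p = 0.00233). Bbc3 fell by 0.79 in clone 1 and by 1.22 in clone 2, Bax by 1.14 and 0.73, and Mcl1 by 0.68 and 0.58, all with an adjusted p under 0.05. With 2 libraries a clone, a difference between clones of moderate size may have been missed. Libraries of the same number were more alike between the clones than were the 2 libraries of a clone. The spread within a clone may thus hold an effect of the number, which was not tested.

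Of the BCL2-related genes outside the 10, 9 of 15 were tested. Compared with WT, 0 rose and 2 fell in DGCR8 KO, and 1 rose and 3 fell in DDX6 KO. For this and the lists below, 19.9% of all tested genes rose and 16.5% fell in DGCR8 KO. In DDX6 KO these shares were 17.9% and 16.6%. The gene that rose, Bcl2l13, lies on chromosome 6 as Bid does, and its log2 change of 0.79 (adjusted p = 1.98e-04) stands beside a median of 0.59 for that chromosome. Bnip3, a mitochondrial receptor of mitophagy, fell by 1.16 on the log2 scale in DDX6 KO (adjusted p = 2.01e-04) and by 0.78 in DGCR8 KO (adjusted p = 0.00522). Bcl2l14 fell by 1.26 in DGCR8 KO (adjusted p = 0.00996). Bcl2l15 went from 3.17 CPM in WT to 0.521 CPM in DDX6 KO (fitted log2 change -2.52, adjusted p = 0.00698), a level near the floor.

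Downstream of the mitochondria, 9 of 10 apoptosome and caspase genes were tested, of which 2 rose and 3 fell in DGCR8 KO and 0 rose and 2 fell in DDX6 KO. Casp2, which encodes an initiator caspase and is a known target of the miR-290 cluster, was at 11.6 ± 3.42 CPM in WT, 39.9 ± 8.07 CPM in DGCR8 KO and 13.4 ± 2.91 CPM in DDX6 KO. It rose by 1.73 on the log2 scale in DGCR8 KO (adjusted p = 3.16e-05) and differed by 1.55 between the knockouts, as Pmaip1 and Bcl2l11 did. Casp6, an effector caspase, fell by 1.34 in DGCR8 KO (adjusted p = 0.0205). It went from 7.13 ± 2.28 CPM in WT to 2.89 ± 1.93 CPM in DGCR8 KO, a level near the floor. Endog, a mitochondrial nuclease, fell by 1.07 in DDX6 KO (adjusted p = 0.00226).

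All 7 inhibitors of apoptosis and their antagonists were tested, with 3 higher and 1 lower in DGCR8 KO and 1 higher and 0 lower in DDX6 KO. The gene higher in DDX6 KO was Htra2 (log2 0.84, adjusted p = 0.00184), which lies on chromosome 6, where the median change was 0.59. Birc3 (cIAP2) was among those higher in DGCR8 KO, with a log2 change of 1.09 (adjusted p = 0.0287). Its level was low, at 4.98 ± 1.61 CPM in WT and 10.6 ± 4.56 CPM in DGCR8 KO. In the death receptor list, of which Bid is not a part, 6 of 7 genes were tested, and 2 rose and 0 fell in each knockout. Cflar, the inhibitor of caspase-8 activation, rose by 2.05 in DDX6 KO (adjusted p = 0.00661) and Tnfrsf1a, a TNF receptor gene also on chromosome 6, by 1.45 (adjusted p = 0.00787). The upper quartile of chromosome 6 was 0.99. Casp2 (log2 0.19, adjusted p = 0.631), Cycs (0.46, adjusted p = 0.245) and Bcl2l14 (-0.30, adjusted p = 0.421) also lie there and did not pass in DDX6 KO. The mean of Cflar was 2.48 CPM in WT, near the floor, and 10.9 CPM in DDX6 KO. Fadd, the adaptor that recruits caspase-8, rose by 1.20 in DGCR8 KO (adjusted p = 0.0235). Its mean was 2.77 CPM in WT and 6.78 CPM in DGCR8 KO.

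The p53 list bears on Bbc3, Bax and Pmaip1, which are known p53 targets. All 12 of its genes were tested, 5 rose and 3 fell in DGCR8 KO, and 0 rose and 6 fell in DDX6 KO. The 6 that fell in DDX6 KO were Trp53, Mdm2 (log2 -0.43), Mdm4 (-0.72), Phlda3 (-0.61), Zmat3 (-0.67) and Ei24 (-0.65). Mdm4, the gene of a p53 inhibitor, was among the 5 that rose in DGCR8 KO (0.64). As the list mixes such genes with p53 targets, its counts give no direction of p53 activity. The median log2 change of the list in DDX6 KO was -0.36, against 0.02 over all tested genes. The shares of all tested genes were 19.9% and 16.5% in DGCR8 KO and 17.9% and 16.6% in DDX6 KO, and the other 6 genes of the list did not pass in DDX6 KO. Trp53, its target Cdkn1a, an inhibitor of cyclin-dependent kinases, and the 3 genes that fell in DGCR8 KO are named here after their values were seen. Trp53 was at 242 ± 27.2 CPM in WT, 236 ± 33.8 CPM in DGCR8 KO and 125 ± 8.90 CPM in DDX6 KO, a fall of 0.95 on the log2 scale in DDX6 KO (adjusted p = 1.04e-05). Cdkn1a had a log2 difference of 0.15 in DDX6 KO (adjusted p = 0.431) and rose by 0.94 in DGCR8 KO (adjusted p = 8.25e-05). The 3 that fell in DGCR8 KO were Mdm2 (log2 -0.92, adjusted p = 1.33e-05), Zmat3 (-0.66, adjusted p = 6.42e-04) and Phlda3 (-0.33, adjusted p = 0.0492). Ei24 differed by 1.53 between the knockouts (higher in DGCR8 KO, adjusted p = 3.12e-08) and Mdm4, a p53 inhibitor, by 1.35 (adjusted p = 1.12e-08). Perp rose by 1.48 in DGCR8 KO (adjusted p = 0.00274), and its log2 difference in DDX6 KO was 0.86 (adjusted p = 0.0670). Whether the level of Trp53 has a part in the values of these members was not tested.

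Of the 7 genes for MCL1 turnover and BAK partners, 3 rose and 1 fell in DGCR8 KO and 0 rose and 2 fell in DDX6 KO. Of the transcription factors that act on BH3-only genes, 5 of 6 were tested, 2 rose and 0 fell in DGCR8 KO, and 1 rose and 2 fell in DDX6 KO. No gene of either list was beyond 2-fold.

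For the 3 members with the largest moderated F statistic over the genotypes (Bid, Pmaip1 and Bcl2l11), the genes most alike over the 10 libraries were found by Pearson correlation of log2 CPM among 8338 genes. The nearest to Bcl2l11 were Cpd (r = 0.994), Trim56 (0.982) and Dync1h1 (0.979), and the nearest to Pmaip1 were Pdgfc (0.987), Pgm2l1 (0.984) and Heca (0.983). All 6 had their highest group mean in DGCR8 KO. The nearest to Bid were Eri1 (0.987), Cd9 (0.979) and Clgn (0.978), with their highest mean in DDX6 KO and lowest in DGCR8 KO. Cd9 lies on chromosome 6, as Bid does. As 205 to 303 genes had r over 0.9 with each of these members, and the libraries fall into 3 genotypes, the values describe a shared group pattern only.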

How the data were processed

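Polyadenylated RNA of 10 ESC libraries was profiled with the QuantSeq 3′ FWD kit. The deposited values are raw counts per gene. Per the file headers and methods, the authors counted uniquely mapped reads on the sense strand with featureCounts (1.5.3) against Gencode M14 basic without rRNA genes and with 92 spike-in sequences. The submitters' processing notes name cutadapt (1.14), STAR (2.5.3a) and mm10. No molecular identifiers are stated, so floors cover counting error only. Spike-in rows were left out of totals and tests (1.10% to 2.36% of counts).

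Identifiers were paired with symbols and GRCm38 coordinates through Gencode M21 (51274 of 51467 genes). The 11683 genes that reached 3 CPM in 3 or more libraries were fitted with limma voom (3.58.1, edgeR 4.0.16, R 4.3.3) on TMM-scaled counts of all libraries with group as the term, and p-values were adjusted by Benjamini-Hochberg over all tested genes. Passing means an adjusted p under 0.05, and beyond 2-fold adds an absolute log2 change over 1. Clones were compared in the same way with 4 groups. DESeq2 (1.42.0), edgeR's quasi-likelihood test, other scalings and filters and left-out libraries were alternatives. All 10 members were described. From each other list, genes past the test and beyond 2-fold in any of the 3 comparisons, at most 4, were named. Trp53, Cdkn1a, Mdm2, Zmat3, Phlda3, Htra2, Bcl2l13 and Cycs were added after their values were seen. The members and lists were chosen with earlier results of these data known. The fits were tested on simulated counts with known fold changes, a fixed dispersion and no effect of the replicate number. The other steps were not tested in this way.

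The numbers in the titles were checked for pairing by correlating deviations from group means. For WT with DGCR8 KO all 3 same-numbered pairs were above 0.1 (r 0.138 to 0.274, other pairs -0.248 to -0.0205), so the blocked fit was taken to apply there, although no label says what a number marks. The values printed for that comparison are nevertheless from the fit without a block, unless the block is named. For DDX6 KO with WT (r -0.0399 to 0.134) and with DGCR8 KO (-0.0806 to 0.124) not all same-numbered pairs were above 0.1. The first libraries of both clones were above it with WT library 1 (0.118 and 0.134) and with DGCR8 KO library 1 (0.124 for both). Pairs of unlike number reached 0.166 with WT and 0.169 with DGCR8 KO. Whether the number marks a shared effect in DDX6 KO was not tested. No replicate pair agreed within sampling noise (chi-square per degree of freedom 2.46 to 7.87). In DDX6 KO this value was 2.46 between the first libraries of the clones and 3.45 between the second. Within clone 1 it was 3.91 and within clone 2 it was 3.96. Seed matches were sought in the principal coding transcript with the longest 3′ UTR (Gencode M21), and 1 site is not reported here.

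Exons of Bak1 share 177 bases with Ggnbp1 and those of Bcl2 share 558 with D630008O14Rik, both on the opposite strand, which counting by strand separates. Bax shares 192 bases on its own strand with Gm45808, which had 0 counts.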

Additional observations from a re-analysis of the deposited data

Results flagged for a closer look

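Bid and Bcl2l11 stood out because every DGCR8 KO library lay on one side of the WT mean and every DDX6 KO library on the other. For Bid the DGCR8 KO effect minus the DDX6 KO effect was -1.87 on the log2 scale (limma adjusted p = 2.08e-07), with all 3 DGCR8 KO libraries below and all 4 DDX6 KO libraries above every WT library. The other 560 tested genes of chromosome 6, where Bid lies, had a median of -0.52 in this comparison (quartiles -1.03 and -0.07). Their median in DDX6 KO against WT was 0.59, and the part of the chromosome in the values of Bid was not tested. For Bcl2l11 the DGCR8 KO effect minus the DDX6 KO effect was 1.22 (adjusted p = 3.80e-06). Its DDX6 KO libraries, at 25.2 to 27.5 CPM, however lay within the WT range of 23.2 to 33.1 CPM, and DDX6 KO did not pass against WT. No DDX6 KO library stood apart from the other 3 for any of the 10 members by Dixon's criterion, which chance meets in about 1 in 20 groups.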

How the results depend on the processing

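Over 567 refits of single members, 534 kept direction and side of the threshold or had no call to lose, 32 lost a call, 1 gained one and 0 called changes reversed. The calls for Pmaip1, Bcl2l11, Bid and Bak1 in DGCR8 KO, and for Bid, Bbc3, Bax and Mcl1 in DDX6 KO, held in every alternative run. The calls lost were those of Bbc3 and Bmf in DGCR8 KO against WT and of Bbc3, Bax and Bcl2l1 between the knockouts. For Bbc3, removing the filter also ended the call in DGCR8 KO (adjusted p = 0.0507), and total counts gave 0.145 for Bbc3 and 0.0717 for Bcl2l1 between the knockouts. Scaling by total counts moved the median log2 change of all genes to 0.15 in DDX6 KO against WT and to -0.13 between the knockouts. With libraries left out in turn, the number of members higher in DGCR8 KO than in WT ran from 3 to 4 and lower from 1 to 3 (1 without WT library 2 or DGCR8 KO library 1). Between the knockouts 4 to 7 were higher in DGCR8 KO (4 without DGCR8 KO library 1 or 3) and 2 lower. In DDX6 KO 1 was higher and 3 lower throughout. The replicate block gave the same counts as the fit without it (3 higher and 3 lower in DGCR8 KO, 1 and 3 in DDX6 KO, 7 and 2 between the knockouts) and changed no call. With the block the limma adjusted p in DGCR8 KO against WT was 0.00646 for Bmf, 0.0164 for Bbc3 and 5.01e-11 for Pmaip1. The runs with libraries left out did not use the block. Over all annotated coding transcripts, miR-16-5p matched 2 members (Bcl2 and Bcl2l11) instead of 1. Bmf and Bcl2 are limited by depth. The causes of these losses were not tested. Where a library was left out, the smaller number of libraries and the value of that library cannot be told apart.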
